A study of Mus musculus with 11 samples.

Results

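The genes described here make cholesterol or are targets or regulators of the sterol regulatory element binding proteins (SREBPs). They are 27 named mouse genes, taken in pathway order from the first mevalonate steps to the last sterol reductase and followed by regulators, a sterol carrier and 3 fatty acid synthesis enzymes. A gene was measured where at least 1 probeset of the array was annotated to it alone, which held for 26 of the 27 members and 357 probesets, among 20352 genes and 211507 probesets in all. Acat2 was not analysed here. Older symbols were updated.

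Each of 11 samples of mouse tissue was hybridised to a single-colour whole-transcript array. The 5 keratoacanthomas, which are squamous skin tumours with a keratin-filled centre, were taken from K14-Cre;Zmiz1 double transgenic animals. The 6 normal skin samples comprised 2 from K14-Cre;Zmiz1 double transgenic mice, 2 from K14-Cre transgenic mice and 2 from Zmiz1 transgenic mice, so every normal sample carried at least 1 of the transgenes and no sample came from a mouse without one. The K14 promoter drives Cre in keratinocytes of the basal layer, whereas RNA was taken from whole frozen tissue. Age, sex and strain are not given in the sources used here, nor is it stated that the samples of a group came from separate mice, so p-values measure the spread between these samples. Values are log2 expression values, and a gene's value is the median over its probesets. The array medians lay between 6.22 and 6.27, the member values between 5.58 and 10.4, and all 26 measured members averaged above 4.96, the 25th percentile of all probesets. No member's level is set against another member's, since probes differ in brightness.

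Cholesterol is built from acetyl-CoA through mevalonate, isoprenoid diphosphates, squalene and lanosterol, and the SREBP transcription factors raise the genes of the whole route when membranes of the endoplasmic reticulum run low in sterol. Scap carries the SREBPs to the Golgi for cleavage, and the Insig proteins hold that complex back when sterol is plentiful. In the epidermis, cholesterol is a component of the lipid layers between the cornified cells, and keratinocytes make much of it themselves.

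Most of the cholesterol route was higher in the keratoacanthomas. Of the 26 measured members, 17 were higher and 0 lower in keratoacanthoma than in normal skin at a limma adjusted p below 0.05, where 14.5% of all genes were called higher and 10.8% lower. At an unadjusted p below 0.05, 19 members were higher, where 36.7% of all genes passed in either direction. Of the 26 differences, 25 were positive, against 44.1% over all genes. The median difference was 0.69 on the log2 scale over the members and -0.04 over all genes. All 5 keratoacanthomas lay above all 6 normal samples for 12 members and below them for 0, which held for 9.66% and 6.31% of all genes. The 3 enzymes that make and close squalene were all called, as were 6 of the 8 enzymes that turn lanosterol into cholesterol, 4 of the 6 mevalonate and isoprenoid enzymes, 2 of the 3 fatty acid enzymes and the carrier Stard4. Of the 5 regulators, 1 was called. In bulk tissue, a change in the number of cells of a type and a change in RNA per cell cannot be told apart. The count was 18 with array medians centred, where 3485 of all genes were higher and 1677 lower against 2959 and 2200 without centring. After quantile normalisation it was 15, where 11.8% of all genes were higher. But it was 10 higher and 2 lower when every array was set to the same mean over 12 keratinocyte markers. That scaling, chosen after seeing the data, moved the median difference of all genes to -0.49 and called 4.84% of all genes higher and 58.6% lower. With the mean of the fat cell markers as a covariate, 0 members were called, against 50 genes higher and 20 lower among all genes, and that covariate did not overlap between the groups. In that fit 25 of the 26 differences were positive, with a median of 0.69 against -0.05 over all genes. At an unadjusted p below 0.05, 10 members passed. No share over all genes stands beside that count, so it does not set the members apart from other genes. The median SE of the members was 0.36, against 0.16 without the covariate.

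**Figure D1:**
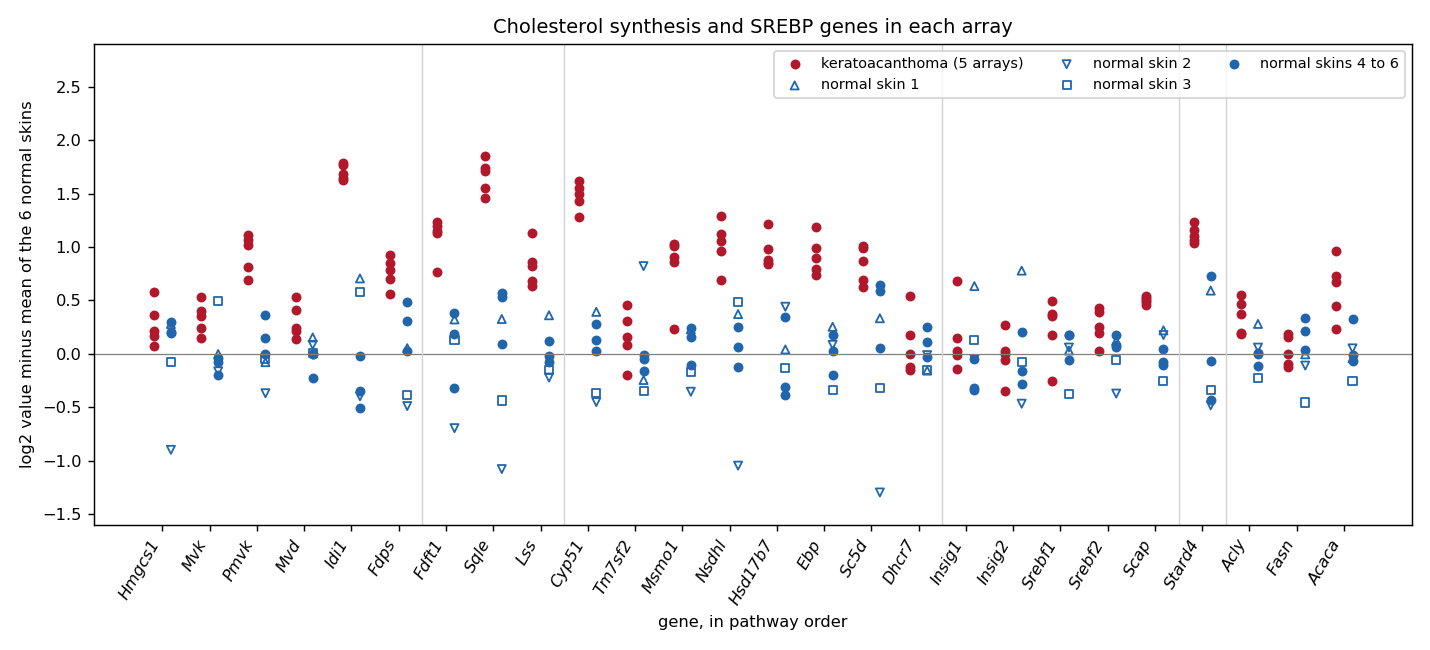
Log2 value of each of the 26 measured members in every array, in pathway order, with keratoacanthomas left of normal skin. The tumour points form tight groups above the normal points for genes such as Idi1, Cyp51 and Stard4, and overlap with them for Insig1, Insig2, Fasn and Dhcr7.

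**Figure D2:**
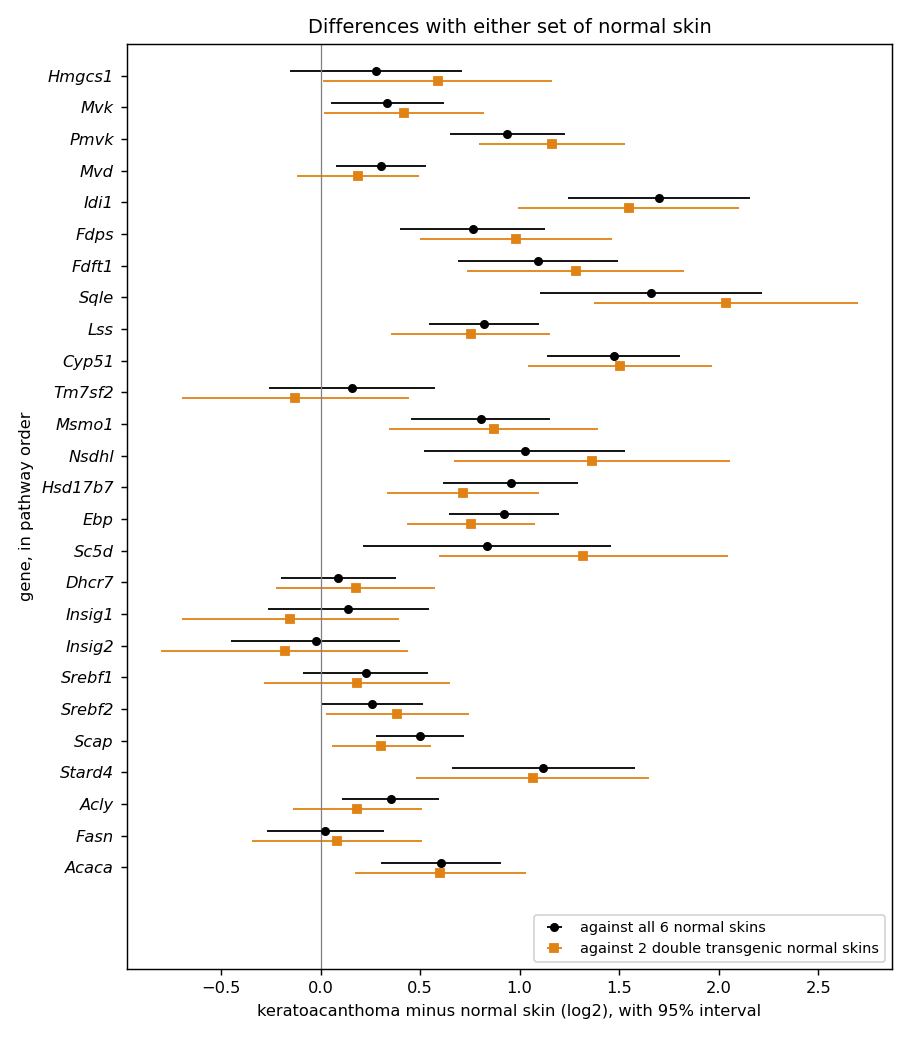
Keratoacanthoma minus normal skin for each member on the log2 scale with its 95% interval, against all 6 normal samples and against the 2 normal samples of the same genotype. Differences run from -0.02 for Insig2 to 1.70 for Idi1 in the first comparison.

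The promoters of 5 members are shown because the genes move in 2 ways: Idi1, Lss and Cyp51 were higher in every keratoacanthoma than in every normal sample, whereas Hmgcs1 and Mvk overlapped between the groups. Each stretch is the 150 bases before the annotated start, 5′ to 3′ on the strand of the gene, taken from RefSeq on GRCm38.p6. The stretches are chr13:8885456-8885605 on the plus strand for Idi1, chr10:76531455-76531604 on the plus strand for Lss, chr5:4104698-4104847 on the minus strand for Cyp51, chr13:119690201-119690350 on the plus strand for Hmgcs1 and chr5:114444119-114444268 on the plus strand for Mvk. Capitals mark matches on either strand to TCACNCCAC, the core of a sterol regulatory element, to CCAAT, the box bound by NF-Y, to GGGCGG, the GC box bound by Sp1, and to CACGTG, an E-box. None of these matches overlaps another motif in the 5 stretches.
Idi1: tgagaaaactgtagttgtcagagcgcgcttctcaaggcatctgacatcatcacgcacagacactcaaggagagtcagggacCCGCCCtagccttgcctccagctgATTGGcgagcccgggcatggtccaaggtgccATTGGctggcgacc
Lss: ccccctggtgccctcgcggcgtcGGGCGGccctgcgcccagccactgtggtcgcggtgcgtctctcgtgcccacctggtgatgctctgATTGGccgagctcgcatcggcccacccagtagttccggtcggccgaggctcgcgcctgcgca
Cyp51: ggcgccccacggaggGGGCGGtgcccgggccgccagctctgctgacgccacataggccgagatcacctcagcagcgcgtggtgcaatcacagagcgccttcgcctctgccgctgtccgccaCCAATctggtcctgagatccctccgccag
Hmgcs1: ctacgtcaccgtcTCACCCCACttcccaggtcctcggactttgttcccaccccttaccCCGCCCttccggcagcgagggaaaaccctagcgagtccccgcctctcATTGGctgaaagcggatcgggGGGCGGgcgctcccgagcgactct
Mvk: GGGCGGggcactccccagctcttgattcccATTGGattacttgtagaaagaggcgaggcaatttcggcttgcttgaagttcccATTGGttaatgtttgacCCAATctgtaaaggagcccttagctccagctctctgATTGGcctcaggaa
The CCAAT box occurs once or more in all 5 stretches, and Mvk holds 4. Among these stretches a match to TCACNCCAC occurs only in Hmgcs1, from position -137 to -129 relative to the start. Other spellings of a sterol regulatory element were not searched for, so a stretch without this match may still hold one. Over the window from 250 bases before to 50 after each start, 31 promoters of 23 of the 27 members could be matched, the others being Sqle, Fdps, Fdft1 and Stard4. CCAAT was found in 21 of the 31 (67.7%) and in 37.4% of all 32851 promoters, and GGGCGG in 24 of the 31 (77.4%) and in 35.7% of all promoters. TCACNCCAC was found in 1 of the 31 (3.23%) and in 1.24% of all promoters, and CACGTG in 6 of the 31 (19.4%) and in 7.15%. These are letter matches, several members contribute more than 1 promoter, and the windows hold members that changed and members that did not pass the test.

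The mevalonate and isoprenoid enzymes turn acetyl-CoA derivatives into farnesyl diphosphate. Idi1, which isomerises isopentenyl diphosphate, had log2 values of 8.26, 8.13, 8.27, 8.17 and 8.12 in keratoacanthomas 1 to 5, against 7.20 and 6.09 in double transgenic skin, 7.06 and 6.47 in K14-Cre skin and 5.98 and 6.14 in Zmiz1 skin. All 5 tumours lay above all normal samples and close together, whereas normal skin spread over more than 1 log2 unit. Its difference was 1.70 ± 0.21 (SE; 3.25-fold; limma adjusted p = 0.0001), the largest among the members. Pmvk, phosphomevalonate kinase, had 7.47, 7.60, 7.80, 7.89 and 7.85 in the keratoacanthomas, against 6.71 and 6.41 in double transgenic, 6.73 and 6.93 in K14-Cre and 6.78 and 7.14 in Zmiz1 skin. The groups did not overlap, and Pmvk rose by 0.94 ± 0.13 (SE; limma adjusted p = 0.00027). Fdps, which makes farnesyl diphosphate, had 10.30, 10.07, 10.44, 10.37 and 10.21 in the keratoacanthomas, against 9.57 and 9.03, 9.13 and 9.82, and 9.54 and 10.002 in double transgenic, K14-Cre and Zmiz1 skin. Every tumour was again above every normal sample, by less than 0.1 for the nearest pair, and Fdps rose by 0.76 ± 0.17 (SE; limma adjusted p = 0.0049).

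Hmgcs1, the synthase that makes HMG-CoA, had 9.06, 8.92, 9.21, 9.42 and 9.01 in the keratoacanthomas, against 9.12 and 7.95 in double transgenic, 8.77 and 9.04 in K14-Cre and 9.05 and 9.14 in Zmiz1 skin. The groups overlapped broadly and only 2 tumours exceeded every normal sample. The difference of 0.28 ± 0.20 (SE) had a limma adjusted p of 0.34 and a 95% interval from -0.15 to 0.71. Mvk, mevalonate kinase, averaged 7.13 ± 0.15 (SD, n = 5) in keratoacanthoma and 6.79 ± 0.25 (SD, n = 6) in normal skin, with 1 K14-Cre sample at 7.28 among the tumours. Its difference of 0.34 ± 0.13 (SE) did not pass the test (limma adjusted p = 0.078). Mvd, the decarboxylase that makes isopentenyl diphosphate, averaged 6.35 ± 0.16 (SD, n = 5) in keratoacanthoma and 6.04 ± 0.13 (SD, n = 6) in normal skin, a called difference of 0.30 ± 0.10 (SE; limma adjusted p = 0.048) that lost its call when any 1 of 8 arrays was left out, keratoacanthomas 1, 3, 4 and 5 and normal samples 3 to 6 (limma adjusted p up to 0.118).

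All 3 squalene enzymes were higher. Sqle, squalene epoxidase, an oxygen-dependent step often named as rate-limiting, had 9.52, 9.80, 9.61, 9.77 and 9.91 in the keratoacanthomas, against 8.39 and 6.98 in double transgenic, 7.62 and 8.16 in K14-Cre and 8.63 and 8.59 in Zmiz1 skin. Every tumour was above every normal sample, and the lowest value was that of double transgenic sample 2. Sqle rose by 1.66 ± 0.26 (SE; 3.16-fold; limma adjusted p = 0.00051). Fdft1, squalene synthase, had 9.46, 9.08, 9.51, 9.55 and 9.44 in the keratoacanthomas, against 8.63 and 7.62 in double transgenic, 8.44 and 7.997 in K14-Cre and 8.498 and 8.69 in Zmiz1 skin. The groups did not overlap, with keratoacanthoma 2 the lowest tumour, and Fdft1 rose by 1.09 ± 0.19 (SE; limma adjusted p = 0.00089). Lss, lanosterol synthase, had 6.96, 6.46, 6.69, 6.64 and 6.50 in the keratoacanthomas, against 6.19 and 5.604 in double transgenic, 5.67 and 5.75 in K14-Cre and 5.95 and 5.81 in Zmiz1 skin. It too was separated between the groups and rose by 0.82 ± 0.13 (SE; limma adjusted p = 0.0005).

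After lanosterol, the ring and side groups are trimmed in several steps. Cyp51, which removes the first methyl group of lanosterol, had 8.96, 8.82, 9.03, 9.15 and 9.09 in the keratoacanthomas, against 7.93 and 7.08 in double transgenic, 7.17 and 7.56 in K14-Cre and 7.67 and 7.81 in Zmiz1 skin. No normal sample reached the lowest tumour, and Cyp51 rose by 1.47 ± 0.15 (SE; 2.77-fold; limma adjusted p = 3e-05), the smallest p of any member. Nsdhl, a dehydrogenase of the same demethylation route, had 7.54, 7.82, 7.97, 7.91 and 8.15 in the keratoacanthomas, against 7.22 and 5.80 in double transgenic, 7.33 and 6.92 in K14-Cre and 7.11 and 6.73 in Zmiz1 skin. All tumours were higher, and it rose by 1.02 ± 0.23 (SE; limma adjusted p = 0.0061). Hsd17b7, the keto reductase of the route, had 8.05, 8.05, 8.19, 8.42 and 8.09 in the keratoacanthomas, against 7.25 and 7.65 in double transgenic, 7.08 and 7.55 in K14-Cre and 6.89 and 6.82 in Zmiz1 skin. The groups stayed apart, and Hsd17b7 rose by 0.95 ± 0.16 (SE; limma adjusted p = 0.00072). Ebp, the sterol isomerase, had 6.66, 6.82, 6.91, 6.71 and 7.11 in the keratoacanthomas, against 6.17 and 6.00 in double transgenic, 5.58 and 5.72 in K14-Cre and 6.10 and 5.94 in Zmiz1 skin. It was separated as well and rose by 0.92 ± 0.13 (SE; limma adjusted p = 0.00024).

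Msmo1, the sterol methyl oxidase, had 8.67, 8.72, 8.82, 8.05 and 8.84 in the keratoacanthomas, against 8.04 and 7.46 in double transgenic, 7.65 and 7.98 in K14-Cre and 8.05 and 7.71 in Zmiz1 skin. Keratoacanthoma 4 fell to the level of the highest normal samples and the other tumours lay above them. The difference was 0.81 ± 0.16 (SE; limma adjusted p = 0.0027). Sc5d, a sterol desaturase near the end of the route, averaged 8.06 ± 0.17 (SD, n = 5) in keratoacanthoma and 7.22 ± 0.73 (SD, n = 6) in normal skin, where Zmiz1 skin at 7.81 and 7.87 was close to the tumours. Its difference of 0.84 ± 0.29 (SE) was called with a limma adjusted p of 0.0498, and the call was lost when any 1 of 7 arrays was left out, all 5 keratoacanthomas and normal samples 3 and 4 (limma adjusted p up to 0.102). The reductases of ring double bonds, Dhcr7 and Tm7sf2, did not pass the test. Dhcr7, which makes cholesterol from 7-dehydrocholesterol, averaged 6.89 ± 0.28 (SD, n = 5) in keratoacanthoma and 6.80 ± 0.16 (SD, n = 6) in normal skin, with a 95% interval of the difference from -0.20 to 0.38 (limma adjusted p = 0.67). Tm7sf2 averaged 6.09 ± 0.25 (SD, n = 5) in keratoacanthoma and 5.93 ± 0.42 (SD, n = 6) in normal skin (limma adjusted p = 0.59).

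Of the regulators, Scap alone was called. Scap had 7.81, 7.80, 7.77, 7.83 and 7.86 in the keratoacanthomas, against 7.53 and 7.49 in double transgenic, 7.05 and 7.21 in K14-Cre and 7.24 and 7.36 in Zmiz1 skin. Every tumour was above every normal sample, and Scap rose by 0.50 ± 0.10 (SE; limma adjusted p = 0.003). Srebf2, the SREBP gene tied most closely to cholesterol synthesis, had 7.55, 7.51, 7.14, 7.37 and 7.32 in the keratoacanthomas, against 7.24 and 6.75 in double transgenic, 7.06 and 7.20 in K14-Cre and 7.18 and 7.29 in Zmiz1 skin. The groups overlapped, and its difference of 0.26 ± 0.12 (SE) had a limma adjusted p of 0.13. Srebf1, tied more to fatty acid synthesis, differed by 0.23 ± 0.15 (SE; limma adjusted p = 0.29). Insig1, itself a classic SREBP target, had 7.93, 7.64, 7.77, 8.46 and 7.81 in the keratoacanthomas, against 8.41 and 7.73 in double transgenic, 7.91 and 7.46 in K14-Cre and 7.73 and 7.44 in Zmiz1 skin. Tumours and normal skin covered the same range, and the difference was 0.14 ± 0.19 (SE; limma adjusted p = 0.63). Insig2 differed by -0.02 ± 0.20 (SE; limma adjusted p = 0.94).

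Stard4, a cytosolic carrier that moves sterol between membranes, had 7.995, 7.93, 8.05, 8.12 and 7.96 in the keratoacanthomas, against 7.48 and 6.41 in double transgenic, 6.55 and 6.46 in K14-Cre and 6.82 and 7.61 in Zmiz1 skin. The tumours were tightly grouped above all normal samples, and Stard4 rose by 1.12 ± 0.21 (SE; limma adjusted p = 0.002). Among the fatty acid enzymes, Acaca, which makes malonyl-CoA, had 7.04, 6.76, 7.28, 6.55 and 6.98 in the keratoacanthomas, against 6.28 and 6.37 in double transgenic, 6.06 and 6.30 in K14-Cre and 6.25 and 6.64 in Zmiz1 skin. Only keratoacanthoma 4 lay within the normal range, and Acaca rose by 0.61 ± 0.14 (SE; limma adjusted p = 0.0064). That call rested on the median, since 1 of its 18 probesets was called and averaging the probesets gave 0.295 (limma adjusted p = 0.057). Acly, which makes cytosolic acetyl-CoA, averaged 7.32 ± 0.16 (SD, n = 5) in keratoacanthoma and 6.97 ± 0.17 (SD, n = 6) in normal skin, a difference of 0.35 ± 0.11 (SE; limma adjusted p = 0.036) that lost its call when any 1 of 7 arrays was left out, keratoacanthomas 1, 3 and 5 and normal samples 3 to 6 (limma adjusted p up to 0.0976). Fasn, the synthase that makes palmitate and a known SREBP target, averaged 7.16 ± 0.14 (SD, n = 5) in keratoacanthoma and 7.13 ± 0.28 (SD, n = 6) in normal skin, and its difference had a 95% interval from -0.27 to 0.32 (limma adjusted p = 0.92).

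The SD was lower in keratoacanthoma than in normal skin for 21 of 26 members and for 70.3% of all genes. The median member SD was 0.17 in keratoacanthoma and 0.31 in normal skin, against 0.19 and 0.26 over all genes. Taking each array's median over the members relative to the normal mean, the keratoacanthomas lay at 0.69, 0.52, 0.78, 0.63 and 0.65, double transgenic skin at 0.24 and -0.29, K14-Cre skin at -0.16 and 0.00 and Zmiz1 skin at 0.03 and 0.08. Double transgenic sample 2 was the lowest normal sample for 13 of the 26 members. Each tumour was above each normal sample on this summary.

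Against the 2 normal samples of the same genotype, which carry both transgenes but are not tumours, 13 of the 26 members were higher and 0 lower, where 10.6% of all genes were higher and 6.93% lower. Of the 26 differences, 23 were positive, with a median of 0.66 against -0.05 over all genes. All arrays of this comparison are also in the first one. Mvd, Scap, Acly and Acaca were not called in it. Sqle differed by 2.04 ± 0.30 (SE; limma adjusted p = 0.0018), Idi1 by 1.55 ± 0.25 (SE; limma adjusted p = 0.003) and Cyp51 by 1.503 ± 0.21 (SE; limma adjusted p = 0.0015). The count depended on double transgenic sample 2: without it 5 members were called, Pmvk, Idi1, Sqle, Cyp51 and Hsd17b7, when 2.47% of all genes were called higher, in a fit where the remaining double transgenic sample is assumed to vary like the other groups.

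Between normal samples, double transgenic skin did not differ detectably from single transgenic skin, with 0 of 26 members called by limma where 0.0147% of all genes were called. Scap alone passed at an unadjusted p below 0.05, with a difference of 0.30 ± 0.12 (SE; limma adjusted p = 0.45), where 10.2% of all genes passed that threshold. The F test among the 3 normal genotypes called 0 members, where 0.00983% of all genes were called. At an unadjusted p below 0.05, 2 members passed. They were Hsd17b7, highest in double transgenic skin and lowest in Zmiz1 skin, and Sc5d, highest in Zmiz1 skin (limma F test adjusted p = 0.42 and 0.43). No share over all genes stands beside that count, so it is not read as a result about the members. The intervals of the double transgenic difference were wide: for Sqle it ran from -1.25 to 0.12. Without double transgenic sample 1, 4 members were called lower in the remaining double transgenic sample, at -1.05 for Hmgcs1, -1.27 for Sqle, -1.22 for Nsdhl and -1.54 for Sc5d, a fit that assumes that the lone sample varies like the other groups and in which 187 of all genes were higher and 159 lower, against 2 and 1 with that sample.

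The probesets of a member told whether its level rested on a few probes. Of the 357 member probesets, 99 were higher (27.7%) and 1 lower at a limma adjusted p below 0.05, where 8.29% of all probesets were higher and 6.98% lower. Positive differences numbered 275 of the 357. With no share over all probesets beside it, that count is not read as a result about the members. Probesets of the same gene are not independent. Sqle had 12 of 13 probesets higher, Idi1 8 of 9, Hsd17b7 9 of 11 and Fdft1 4 of 5. Cyp51 had 8 of 13 higher, with differences up to 2.11, while 1 probeset stood at -1.38 without passing. Fasn had 0 of 47, Srebf1 0 of 20, Tm7sf2 0 of 11, Insig2 0 of 7 and Insig1 0 of 5. The lower probeset belonged to Dhcr7, at -0.67. Srebf2 and Hmgcs1, not called by the median, had 5 of 25 and 3 of 13 probesets higher and 0 lower. Their differences were positive for 21 of 25 and 12 of 13 probesets. Among the called members, probeset support was thin for Acaca (1 of 18), Acly (2 of 31) and Sc5d (1 of 6). Averaging probesets in place of the median added calls for Srebf2 at 0.46, Hmgcs1 at 0.41 and Mvk at 0.28, and ended that for Acaca.

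**Figure D3:**
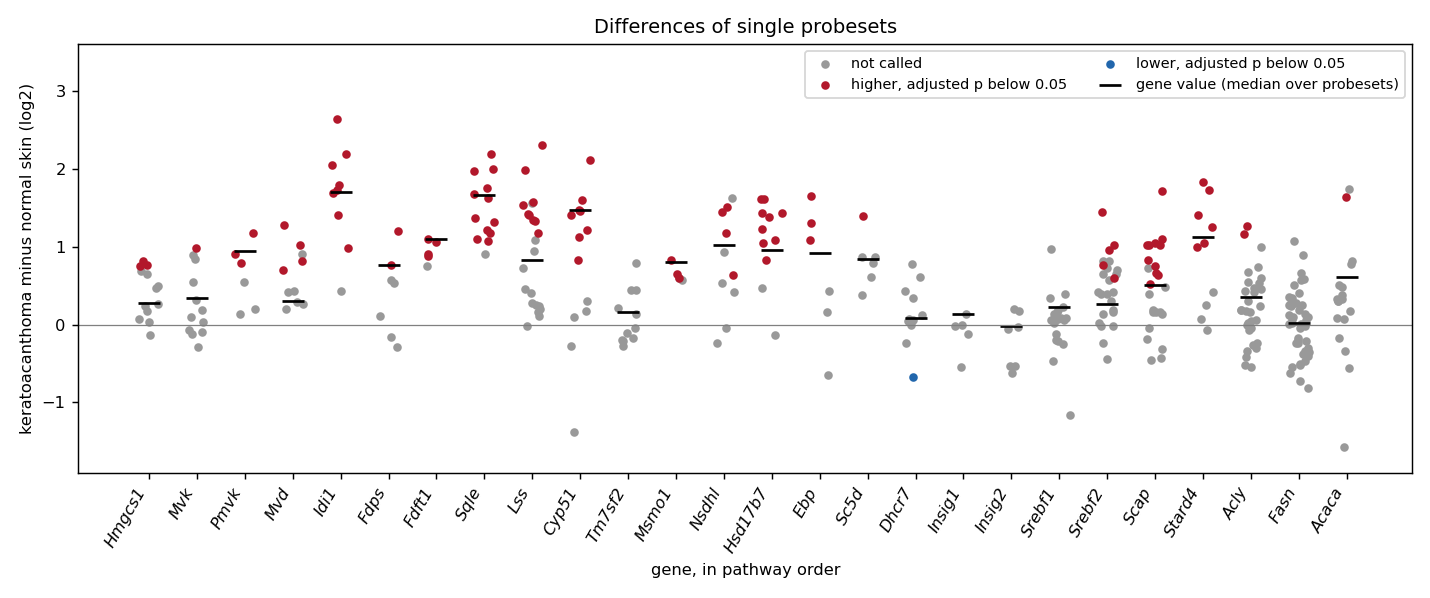
Keratoacanthoma minus normal skin on the log2 scale for every probeset of each member, with those past the adjusted p threshold marked. Nearly all probesets of Sqle and Idi1 are called, and none of Fasn, Srebf1, Tm7sf2, Insig1 or Insig2 is called higher.

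Genes of neighbouring pathways were read beside the members, and their counts stand against the 14.5% of all genes called higher and 10.8% called lower. Of 10 further sterol enzymes and cofactors, 2 were higher and 0 lower, with a median difference of 0.11. These were Tmem97, a sterol-responsive endoplasmic reticulum protein that averaged 6.91 ± 0.17 (SD, n = 5) in keratoacanthoma and 6.08 ± 0.10 (SD, n = 6) in normal skin, and Erg28 at 0.55. Of 13 isoprenoid branch genes, which use farnesyl and related diphosphates for dolichol, quinones and prenylated proteins, 3 were higher and 0 lower, with a median of 0.26. Nus1, a subunit of the enzyme that starts dolichol synthesis, rose by 1.24 ± 0.14 (SE; limma adjusted p = 6e-05). Of 13 genes that cleave, transport or degrade the SREBP machinery, 4 were higher and 0 lower, with a median of 0.27. Erlin2, which takes part in sterol-regulated protein degradation at the endoplasmic reticulum, rose by 0.83 ± 0.19 (SE; limma adjusted p = 0.0071). The proteases that cleave SREBPs, Mbtps1 and Mbtps2, named here for that role after their values were seen, differed by 0.24 and 0.65 and did not pass (limma adjusted p = 0.073 and 0.062).

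Fatty acid synthesis and desaturation outside the members went both ways, with 4 of 18 genes higher, 7 lower and a median of -0.17. Scd1 and Scd2 are desaturases that make monounsaturated fatty acids. Scd1 averaged 8.85 ± 0.81 (SD, n = 5) in keratoacanthoma and 10.69 ± 0.34 (SD, n = 6) in normal skin, a difference of -1.84 ± 0.31 (SE; limma adjusted p = 0.00086). Scd2 averaged 7.33 ± 0.25 (SD, n = 5) in keratoacanthoma and 6.15 ± 0.44 (SD, n = 6) in normal skin, a difference of 1.18 ± 0.20 (SE; limma adjusted p = 0.00084). Thrsp, a lipogenic protein of fat and liver, differed by -1.87 and the elongase Elovl7 by 1.66. A further list of 17 genes held the LXR receptors, which answer to oxysterols, some of their targets, and genes of sterol transport and metabolism. Of these 17, 3 were higher, 5 lower and the median was -0.07. Sult2b1, which makes cholesterol sulfate in the epidermis, rose by 1.59 ± 0.30 (SE; limma adjusted p = 0.0018), Ch25h, which makes an oxysterol, by 1.09 and Smpdl3a by 0.88, and Abca1, a sterol exporter, fell by 0.68.

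**Figure D4:**
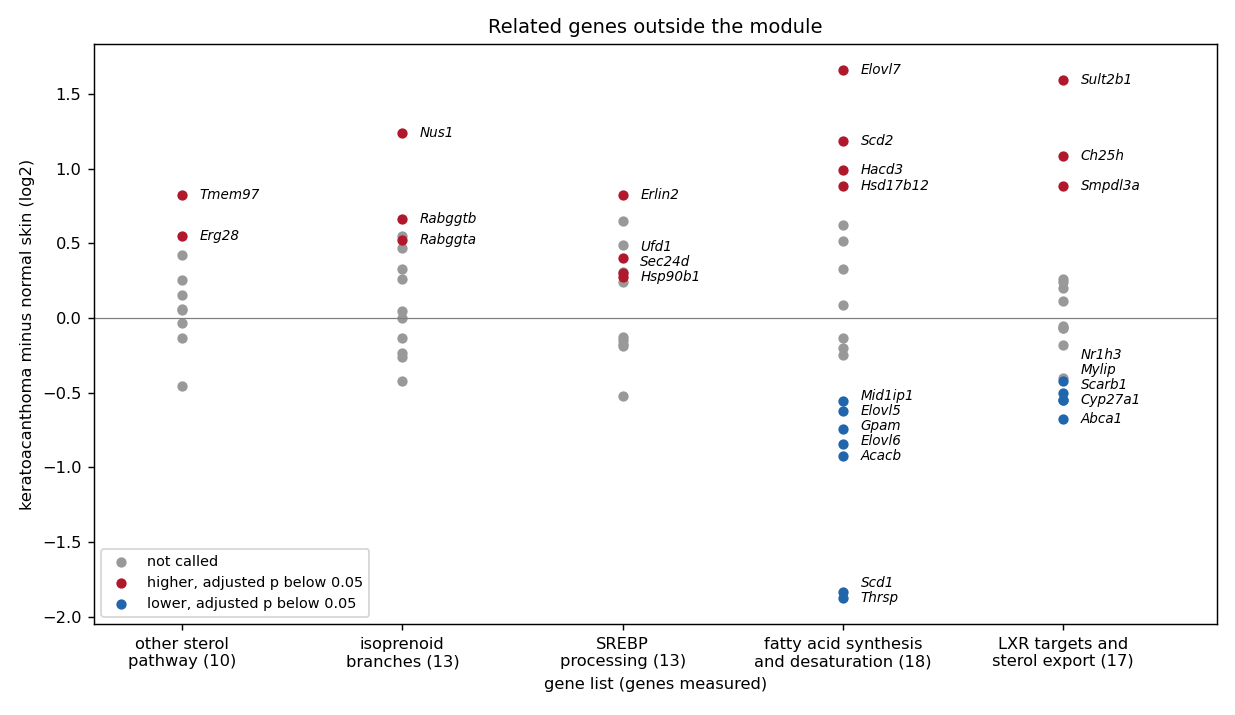
Keratoacanthoma minus normal skin on the log2 scale for the genes of each related list, with called genes labelled. The called genes number 2 of 10 further sterol genes, 3 of 13 isoprenoid genes and 4 of 13 SREBP processing genes, all higher, 11 of 18 fatty acid genes and 8 of 17 LXR genes.

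Array means of the fat cell, skeletal muscle, dividing cell, keratinocyte and fibroblast markers did not overlap between the groups. Those of the sebaceous gland, macrophage and hair follicle markers did. The called counts below stand against 14.5% of all genes called higher and 10.8% called lower. Fat cell markers were lower in 10 of 14 genes and higher in 1, with array means from 5.98 to 6.84 in keratoacanthoma and from 7.36 to 8.30 in normal skin. Skeletal muscle markers were lower in 16 of 16, at 5.68 to 7.19 in keratoacanthoma and 10.2 to 11.5 in normal skin. Dividing cell markers were higher in 11 of 11, at 7.57 to 7.74 in keratoacanthoma and 5.43 to 7.14 in normal skin. Keratinocyte markers were higher in 5 and lower in 2 of 12, at 10.1 to 10.2 in keratoacanthoma and 9.41 to 9.89 in normal skin. Sebaceous gland markers, of cells that also make sterols and wax esters, were higher in 1 and lower in 4 of 13, at 6.13 to 7.13 in keratoacanthoma and 6.81 to 7.42 in normal skin. Fibroblast markers were lower in 5 of 10, at 7.51 to 8.51 in keratoacanthoma and 8.77 to 9.40 in normal skin, and macrophage markers were lower in 2 of 12, at 6.40 to 7.30 in keratoacanthoma and 7.23 to 8.12 in normal skin. Hair follicle markers split within the groups, reaching 8.5 in keratoacanthoma 4, against 9.43 in double transgenic sample 1 and 9.19 in K14-Cre sample 3, and 6.06 to 6.70 elsewhere. Without those 3 arrays, an alternative chosen after seeing the data, 16 members were higher, where 2646 of all 20352 genes were called higher. The part of muscle, fibroblast, macrophage, sebaceous and dividing cells in the member differences was not tested.

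**Figure D5:**
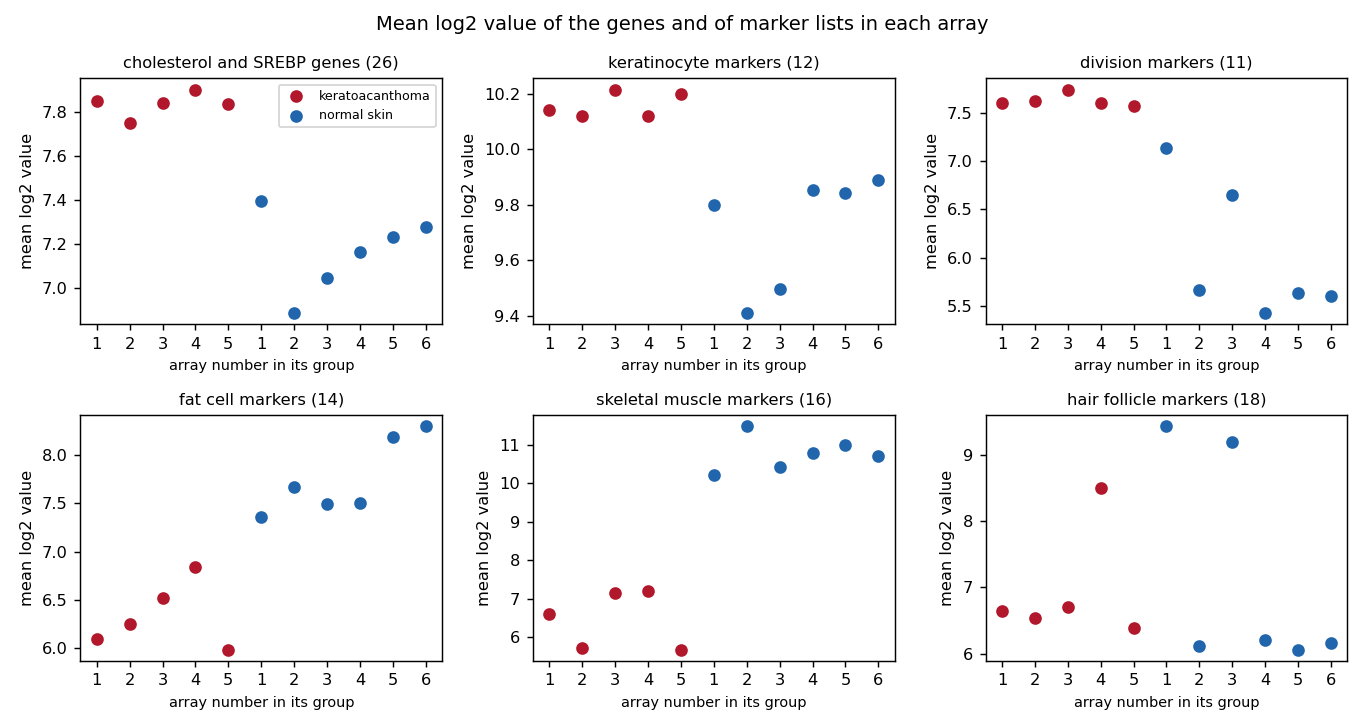
Mean log2 value of the members and of 5 marker lists in every array, keratoacanthomas left of normal skin. The members separate the groups, as do the muscle, fat, keratinocyte and dividing cell markers, while the hair follicle markers are high in 3 arrays.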

How the data were processed

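RNA from 5 keratoacanthomas and 6 normal skin samples was measured on single-colour arrays. The deposited values are log2 expression values per probeset, made by the authors with RMA in Partek with the mm9 build named, per the submitters' processing notes; their versions are not given in the sources used here. RMA normalises between arrays and compresses differences of bright or dim probes, and the number of arrays limits the precision. Of 241576 probesets, 212097 named 1 gene, 4475 several and 25004 none in the platform annotation; 590 probesets identical to another were dropped and 2742 symbols were updated. Gene values are medians over probesets. Differences were tested with limma 3.58.1 in R 4.3.3 over all 20352 genes (2 groups, and a model of 4 groups for genotype contrasts). P-values had Benjamini-Hochberg adjustment and a threshold of 0.05. The fit was also run on simulated data with the same spread in both groups, and that outcome is not given here. Tables were made in pandas 2.3.3 and numpy 2.4.6 under Python 3.11.15, and plots in matplotlib 3.10.9. Named genes are all members and, from each other list, up to 4 genes past the threshold with the largest absolute difference. The plot of the related lists labels every called gene. The members and lists were chosen with earlier results of these data known. Alternatives changed the probeset summary, dim filter, normalisation, variance model, reference skin, covariates and single arrays.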

Additional observations from a re-analysis of the deposited data

Results flagged for a closer look

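Among the 52 groups of member values (26 members in keratoacanthoma and in normal skin), 5 held 1 array set apart from the others of its group by Dixon's test, which chance flags in about 1 in 20 groups. Hmgcs1 was low in normal skin sample 2, at 7.945, with the other normal samples between 8.77 and 9.14. Tm7sf2 was high in the same sample, at 6.747, with the others between 5.577 and 5.918. Mvk was high in normal skin sample 3, at 7.281, with the others between 6.587 and 6.787, and without that sample Mvk was called higher in keratoacanthoma (limma adjusted p = 0.0087). Fdft1 was low in keratoacanthoma 2, at 9.077, with the other tumours between 9.444 and 9.547. Msmo1 was low in keratoacanthoma 4, at 8.049, with the others between 8.674 and 8.838, and keratoacanthoma 4 was also the tumour with the highest hair follicle markers.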

How the results depend on the processing

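The count of 17 higher members lay between 13 and 19 over the alternatives other than the keratinocyte scaling and the fat cell covariate. The share of all genes called higher ran from 9.54% to 19.6% over those settings, against 14.5% in the main fit. When single arrays were left out, the count lay between 14 and 17, where 11.8% to 14.5% of all genes were higher. Under the keratinocyte marker scaling, chosen after seeing the data, 10 members were higher and 2 lower, Insig2 at -0.468 and Fasn at -0.421, where 58.6% of all genes were lower. Of 25 positive differences, 10 turned negative, among them those of the called members Mvd (-0.139) and Acly (-0.091); by its construction this scaling lowers every difference by the same amount. With the fat cell covariate 0 members were called, when 50 genes were higher and 20 lower in all; that covariate does not overlap between the groups. Under all other settings 12 members kept their call, namely Pmvk, Idi1, Fdps, Fdft1, Sqle, Lss, Cyp51, Msmo1, Nsdhl, Hsd17b7, Ebp and Stard4. Against the same genotype, 13 members were called, 8 with array weights and 5 to 14 with single arrays left out, the lowest without double transgenic sample 2, where 10.6%, 4.63% and 2.47% to 12.5% of all genes were higher. Double against single transgenic skin gave 0 to 4 members with single arrays left out, 4 without double transgenic sample 1. Averaging probesets ended the call of Acaca. The labels do not say that the sample numbers of tumours and normal skin pair the samples. Same-numbered deviations correlated between -0.18 and 0.10, and 1 of 5 tumours correlated best with its own number. Correlations of so few arrays cannot settle whether samples were paired. With the replicate block, 15 members were higher, Mvd and Acly losing their calls, where 12.8% of all genes were higher. Small groups, most of all the 2 samples a genotype, limit what could be called.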
